A study of Mus musculus with 6 samples.

Results

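The expression of 9 ion-channel genes that sense temperature, chemicals or touch was followed across the nuclei of 1 mouse ganglion library. The members are Trpv1, Trpa1, Trpm8, Trpm3, Trpc5, Trpc7, Trpv2, Piezo2 and Piezo1. They were chosen by name, with earlier results of these data known, and all 9 are among the 55357 genes of the ganglion count matrix. The library came from lumbar dorsal root ganglia of C57BL/6 mice at postnatal day (P) 14, with 4 males and 4 females pooled. A separate set of 5 libraries held C57BL/6 sciatic nerve cells. The P0 library pooled 22 animals, P7 21, P14 18, P28 15 and P60 13, each with males and females. No allele or treatment is named for any group, and each group is 1 library, so no difference below has a replicate or a test. The study profiled the ganglion to look for receptor components of the secreted signal SEMA3B on unmyelinated axons; the channel genes were not its stated subject. The ganglion sample is titled as cells, but its molecule label and the design text speak of nuclei, and it was treated as nuclei.

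TRP channels are cation channels of sensory endings. Trpv1 opens to noxious heat, acid and capsaicin, Trpm8 to cooling and menthol, Trpa1 to electrophilic irritants, and Trpm3 to heat and pregnenolone sulfate. Trpc5 and Trpc7 belong to the receptor-operated TRPC subfamily, and Trpv2 is a TRPV relative of Trpv1. Piezo2 is the main channel of gentle touch and of limb position sense, and Piezo1 is its relative in blood vessels, blood cells and many other tissues. Sensory neurons of the ganglion divide into large myelinated-type neurons and several unmyelinated types, which carry different sets of these channels.

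After filters and removal of likely doublets, 5331 of 5871 barcodes were kept, with a median of 1983 UMIs (unique molecular identifiers, tags that count RNA molecules once). Between 10 and 19 ganglion barcodes also occurred in each nerve library, 75 in all. Clusters were named from marker genes, with every member kept out of the clustering and out of the markers. The neuron classes were called NF-like (large, myelinated type, 104 nuclei), NP1-like (Mrgprd type, 166), NP2-like (Mrgpra3 type, 49), NP3-like (Sst and Nppb type, 109), PEP-like (peptidergic, 255), cLTMR-like (C-fibre low-threshold mechanoreceptors, 172) and cold-like (100). A further 396 neuronal nuclei stayed unnamed, and 3980 nuclei were non-neuronal, 2279 of them satellite glia-like. Named neurons held a median of 7599 UMIs, but the NF-like class held 1360.5 and satellite glia 1873. The cold-like label rests mainly on Foxp2 and Cdh8 at 837 and 1001 UMIs per 1e6 UMIs of the class (CPM). Its other markers Rxfp1, Gpr26 and Penk were lower, at 99.5, 54 and 9.59 CPM. Each of these markers was highest in this class among the neuron classes. Foxp2 was also at 2125 CPM in mesenchymal-like nuclei, where Cdh8 was at 12.5 CPM. The PEP-like class joined 3 clusters of 161, 69 and 25 nuclei, and mitochondrial genes led the cluster of 69. No PEP marker was among the top 10 genes by fold of any of these clusters. Tac1 (257 CPM in PEP), Calcb, Gal and Smr2 were each higher in another neuron class, Tac1 in the cold-like class at 341 CPM. The other PEP markers were highest in PEP among the neuron classes, with Calca, Kit and Adcyap1 at 338, 254 and 178 CPM. Satellite glia held Calca at 241 CPM and Kit at 482 CPM. In the NF-like class Nefh was at 245 CPM, against at most 24 CPM in any other named neuron class. The proprioceptor markers Esrrg, Whrn, Pvalb and Runx3 were at 646, 48.1, 34.1 and 8.02 CPM, each higher than in any other named neuron class. Etv1, also a proprioceptor marker, was at 189 CPM, below NP2 (317 CPM) and NP3 (359 CPM).

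The promoters of 4 members whose levels differed widely between classes are shown first, because the class patterns of these genes are described below. RefSeq promoter windows were used for 7 of the 9 members (GRCm38.p6, 250 bases before to 50 after the transcript start, 5′ to 3′ on the gene's strand). The search did not cover every chromosome, so RefSeq may also hold windows for the others. Capitals mark matches, on either strand, to 4 short motifs. The initiation motif known as the TATA box was searched as the letters TATAAA. The GC box, a common promoter element, was searched as GGGCGG. The core motif of RUNX factors, which help to divide sensory neuron types, was searched as TGTGGT. The core motif of homeodomain factors was searched as TAATTA, and no matches in the printed windows overlapped.
Trpm8, chr1:88306485-88306784, plus strand: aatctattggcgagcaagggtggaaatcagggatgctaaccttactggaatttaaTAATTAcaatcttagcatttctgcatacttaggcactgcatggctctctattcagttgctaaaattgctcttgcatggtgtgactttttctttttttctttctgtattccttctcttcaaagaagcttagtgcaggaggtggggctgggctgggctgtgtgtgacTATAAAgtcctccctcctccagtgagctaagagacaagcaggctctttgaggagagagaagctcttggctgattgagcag
Trpv1, chr11:73233899-73234198, plus strand: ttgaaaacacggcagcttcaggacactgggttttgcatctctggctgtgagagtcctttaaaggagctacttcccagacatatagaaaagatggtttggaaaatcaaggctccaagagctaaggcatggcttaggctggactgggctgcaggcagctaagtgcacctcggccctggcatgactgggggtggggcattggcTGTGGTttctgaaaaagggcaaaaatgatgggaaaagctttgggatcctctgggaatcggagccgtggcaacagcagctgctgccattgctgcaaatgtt
Trpc7, chr13:56895740-56896039, minus strand: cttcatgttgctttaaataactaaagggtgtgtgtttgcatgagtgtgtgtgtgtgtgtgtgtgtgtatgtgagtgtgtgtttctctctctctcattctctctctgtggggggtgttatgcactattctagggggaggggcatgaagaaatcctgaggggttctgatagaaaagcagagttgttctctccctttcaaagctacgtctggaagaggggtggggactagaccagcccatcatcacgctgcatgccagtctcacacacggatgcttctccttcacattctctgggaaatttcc
Piezo1, chr8:122551280-122551579, minus strand: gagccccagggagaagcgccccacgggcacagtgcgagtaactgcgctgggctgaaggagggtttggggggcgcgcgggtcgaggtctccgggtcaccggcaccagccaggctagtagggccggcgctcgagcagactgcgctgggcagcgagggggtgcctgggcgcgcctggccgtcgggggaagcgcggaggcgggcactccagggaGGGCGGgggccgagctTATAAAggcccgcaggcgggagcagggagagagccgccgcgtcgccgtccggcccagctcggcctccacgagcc
The Trpm8 window held a TATA box 30 bases and a homeodomain core 195 bases upstream of the start. The Trpv1 window held a RUNX core 50 bases upstream, and the Piezo1 window a TATA box 24 and a GC box 40 bases upstream. The Trpc7 window held none of the 4 motifs. Among the windows not printed, some of Trpv2 and Trpm3 also held a RUNX core, and Trpv2 also a TATA box. The Trpc5 window held none of the motifs. Of 32851 promoter windows, 13.6% held a TATA box, 35.7% a GC box, 16.8% a RUNX core and 5.29% a homeodomain core. The GC box match is thus common, and the homeodomain core is the least common of the 4. GC content was 44.3% for Trpm8, 51.7% for Trpv1, 48% for Trpc7 and 75% for Piezo1. These matches are letters in a window and show no binding.

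Of the 9 members, 7 were at least 2-fold higher in named neurons than in non-neuronal nuclei, and the other two, Trpm3 and Piezo1, were at least 2-fold lower. Of 18998 genes with at least 20 UMIs in the compared groups, 18.4% were that much higher and 31.6% that much lower. The comparison sets summed UMIs against each other, and each interval covers counting error only. Trpc7 had 307 UMIs in neurons and 2 in all non-neuronal nuclei, a ratio of 140 (95% interval 38.5 to 1164). Trpm8 was 26.0-fold higher (19.4 to 35.5), Trpv1 11.3-fold (10.1 to 12.8), Trpv2 6.46-fold (5.09 to 8.29), Piezo2 5.45-fold (5.23 to 5.68) and Trpa1 4.95-fold (2.93 to 8.86). Trpc5 stood at the edge of the threshold with 2.01-fold (1.29 to 3.21). Trpm3 was at 1312 CPM in neurons against 3610 CPM in non-neuronal nuclei, and 1 cluster decided that direction. Without that cluster of 131 nuclei the non-neuronal level was 930 CPM and the ratio turned to 1.41 (1.37 to 1.45). Leaving it out also put Trpc5 at 1.98-fold, under the threshold.

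Among the neuron classes the 9 members took different patterns. Each class was set against all other named neurons, again with 2-fold as the threshold, over 15583 genes. The cold-like class was higher for Trpm8 and Trpv1 (8.56% of genes were called higher in that class). Without 28 nuclei that are described below as sub-cluster 2, the Trpv1 call ended, with a ratio of 0.947 (0.798 to 1.12), and Trpm8 was 216-fold higher (173 to 273). The PEP-like class was higher for Trpv1, Trpa1, Trpm3 and Trpc7 (8.59%). The NP3-like class was higher for Piezo1 (8.88%), the NP1-like class for Trpc5 (5.31%) and the cLTMR-like class for Piezo2 (6.15%). No member was called higher in the NP2-like class (5.88%) or the NF-like class (16.2%). Trpv2 was called in no class. Levels were not compared between genes, because the members' spans in the GENCODE M21 annotation run from 26 kb for Trpv2 to 856 kb for Trpm3, and counts from nuclei may grow with gene length.

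**Figure D1:**
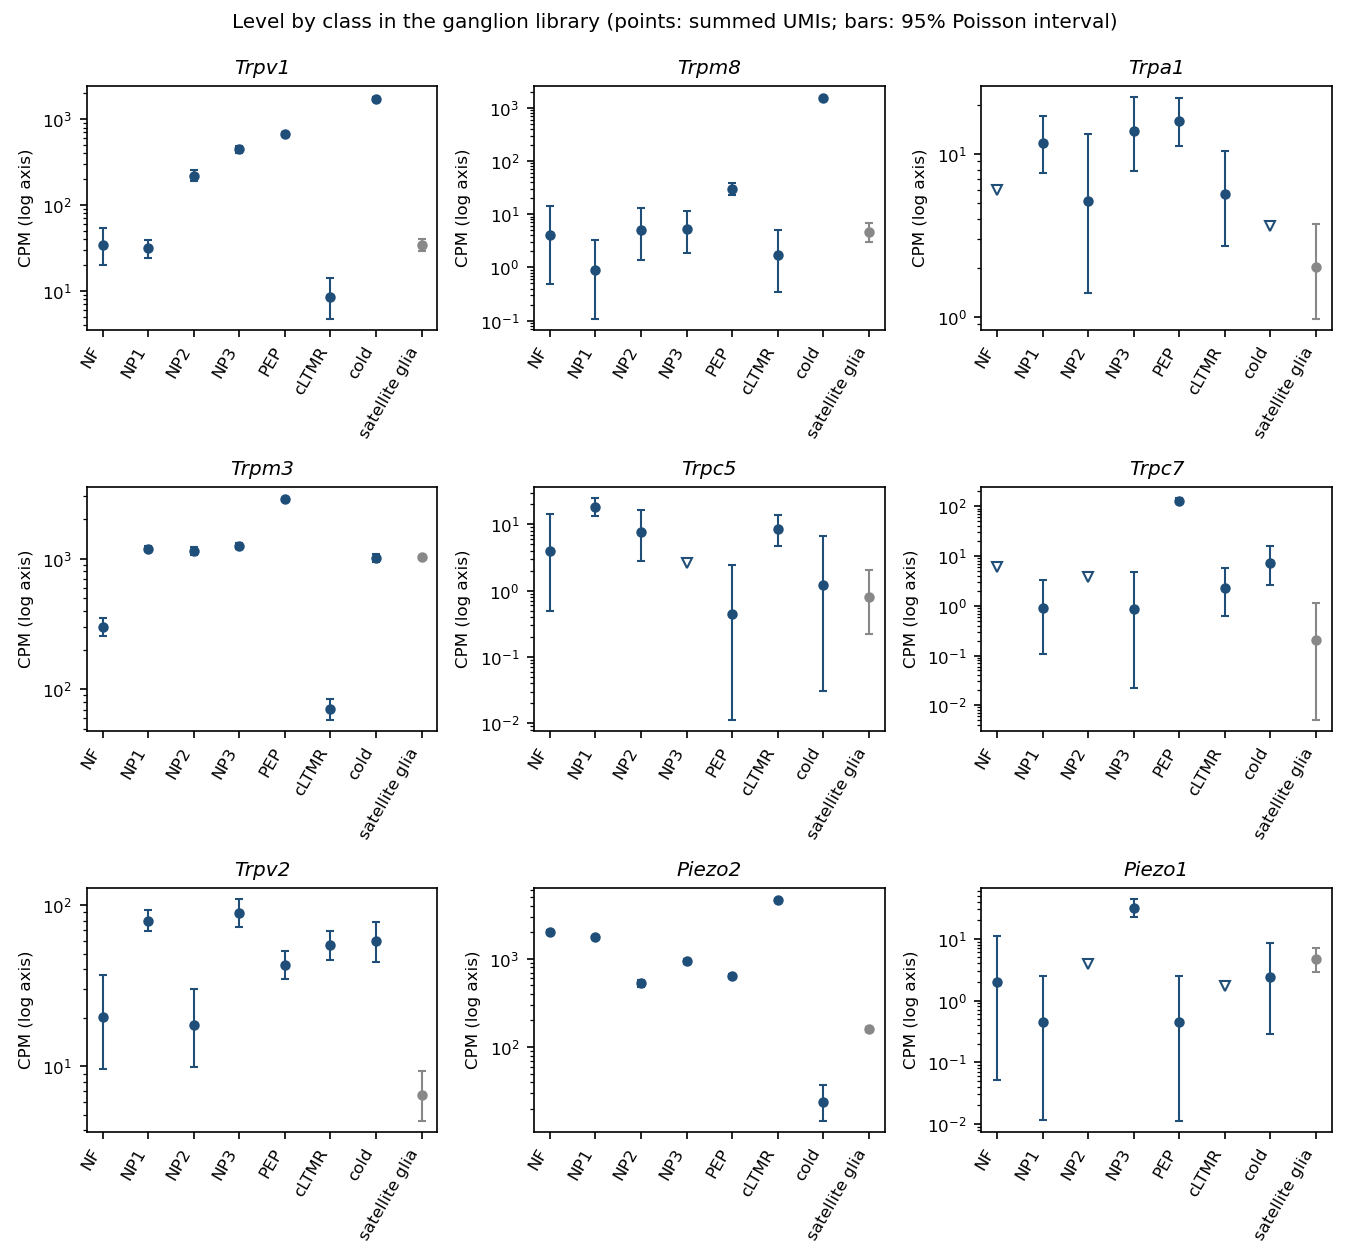
Level of each member in CPM (vertical log axis) in the 7 neuron classes and in satellite glia (grey). Points are CPM with 95% Poisson intervals, and open triangles mark classes with 0 UMIs at the level that 3 counts would give. Trpm8 stands at 1500 CPM in the cold-like class and at most 29.8 CPM in any other neuron class, and Piezo1 at 31.9 CPM in the NP3-like class and at most 2.40 CPM elsewhere among neurons.

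Trpv1 was found in several unmyelinated types. It was at 1716 CPM (95% interval 1628 to 1807) in the cold-like class, 679 (646 to 714) in PEP, 447 (409 to 487) in NP3 and 221 (190 to 257) in NP2. It was at 34.1 CPM (19.9 to 54.6) in NF, 31.5 (24.5 to 39.8) in NP1 and 8.54 (4.78 to 14.1) in cLTMR. Each step of this order was larger than counting error except that from NF to NP1, with a ratio of 1.08 (0.598 to 1.86). The cold-like rank rested on 28 of its 100 nuclei, sub-cluster 2 described below, which held 1280 of the 1431 Trpv1 UMIs. Without them the class was at 253 CPM (215 to 297), which was 0.373 times the PEP level (0.314 to 0.441) and 0.567 times the NP3 level (0.470 to 0.681). Satellite glia were at 34.4 CPM (29.4 to 39.9). Free RNA gives UMIs to droplets of any cell, so satellite glia serve as the background. Per nucleus, Trpv1 was at 0.0746 UMIs in satellite glia, 0.0872 in cLTMR, 0.163 in NF and 0.422 in NP1. With each nucleus thinned to 1000 UMIs, 43.3% of PEP nuclei (93 of 215), 40.0% of cold-like (40 of 100), 39.4% of NP3 (41 of 104) and 18.8% of NP2 (9 of 48) held a Trpv1 UMI, against 2.86% of satellite glia. The shares in NP1 (3.01%), cLTMR (1.41%) and NF (6.76%, interval 2.23 to 15.1) had intervals that overlapped that of satellite glia (2.16 to 3.70). Unthinned, the shares were 71.8% in PEP, 57% in cold-like, 89.9% in NP3, 29.5% in NP1 and 6.93% in satellite glia.

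Trpm8, the cooling and menthol channel, was almost entirely in the cold-like class, which was named without it. Of its 1335 UMIs in named neurons, 1251 were there, at 1500 CPM (1418 to 1586). PEP followed with 29.8 CPM (23.1 to 37.8), the cold-like level being 50.3-fold higher (39.4 to 65.4), and the other 5 classes lay between 0.899 and 5.18 CPM. No neighbours among these 5 differed beyond counting error, though NP3 was above NP1 (ratio 5.76, 1.03 to 58.3) from 6 and 2 UMIs. Satellite glia were at 4.65 CPM (2.95 to 6.98). At 1000 UMIs a nucleus, 55.0% of cold-like nuclei (55 of 100) held a Trpm8 UMI, 2.79% of PEP nuclei (6 of 215, interval 1.03 to 5.97) and 0.675% of satellite glia. The unthinned shares were 67% in cold-like, 15.3% in PEP and 1.01% in satellite glia. The unnamed neuronal nuclei held 105 Trpm8 UMIs, 43 of them in 1 nucleus.

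Trpv1 and Trpm8, both highest in the cold-like class as a whole, were mostly in different nuclei of it. At matched depth, 40 of its 100 nuclei held Trpv1, 55 held Trpm8 and 6 held both. Trpm8 was found in 15% of Trpv1-positive nuclei (6 of 40, interval 5.71 to 29.8) and in 81.7% of Trpv1-negative nuclei (49 of 60). With all UMIs, 28 nuclei had at least 10 Trpv1 UMIs and no Trpm8 UMI, 27 had at least 10 Trpm8 UMIs and no Trpv1 UMI, and 0 had at least 10 of both. Lower counts did occur together: with all UMIs 45.6% of Trpv1-positive nuclei had at least 1 Trpm8 UMI.

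When the 100 cold-like nuclei were clustered again with every member held out, 3 sub-clusters formed. This step was added after the pattern was seen. Sub-cluster 0 (43 nuclei) had Trpm8 at 2716 CPM (2542 to 2899) and Trpv1 at 160 CPM (120 to 209). Sub-cluster 1 (29 nuclei) had Trpm8 at 1320 CPM (1185 to 1466) and Trpv1 at 372 CPM (302 to 453). Sub-cluster 2 (28 nuclei) had 1 Trpm8 UMI, 4.20 CPM (0.106 to 23.4), and Trpv1 at 5381 CPM (5090 to 5684). Per nucleus, Trpv1 ran from 4 through a median of 44.5 to 94 UMIs in sub-cluster 2, from 0 through 0 to 27 in sub-cluster 0 and from 0 through 2 to 15 in sub-cluster 1. Trpm8 ran from 0 to 1 UMI in sub-cluster 2, and had medians of 14 in sub-cluster 0 and 6 in sub-cluster 1. In 24 of the 28 nuclei of sub-cluster 2, Trpv1 exceeded the 27 UMIs that were the most in any other cold-like nucleus. The groups did overlap, since 15 of the other 72 nuclei had at least 4 Trpv1 UMIs.

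Sub-cluster 2 also carried less of the markers that named the class. Foxp2 was at 370 CPM there against 979 and 1081 CPM in sub-clusters 0 and 1, and Cdh8 at 206 against 1211 and 1456 CPM, so the label rests mainly on sub-clusters 0 and 1. The genes of largest fold in sub-cluster 2, besides Trpv1 itself, were Rxfp1 (a relaxin receptor), Qrfpr, Grid1, Esr1 (an oestrogen receptor) and Prlr (the prolactin receptor). Rxfp1, which is one of the class's 5 markers, was found in only 5 of its 28 nuclei. All 3 sub-clusters were low in Scn10a, the sodium channel of most nociceptors, at 42.2, 19 and 21 CPM, against 958 CPM over all unmyelinated-type neurons. Trpm3 was at 1012, 1612 and 353 CPM. At a finer resolution 4 sub-clusters formed, of which the 2 with Trpv1 at 4313 and 5927 CPM had Trpm8 at 28.2 and 363 CPM. All 43 Trpm8 UMIs of the last were in 1 of its 18 nuclei.

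**Figure D2:**
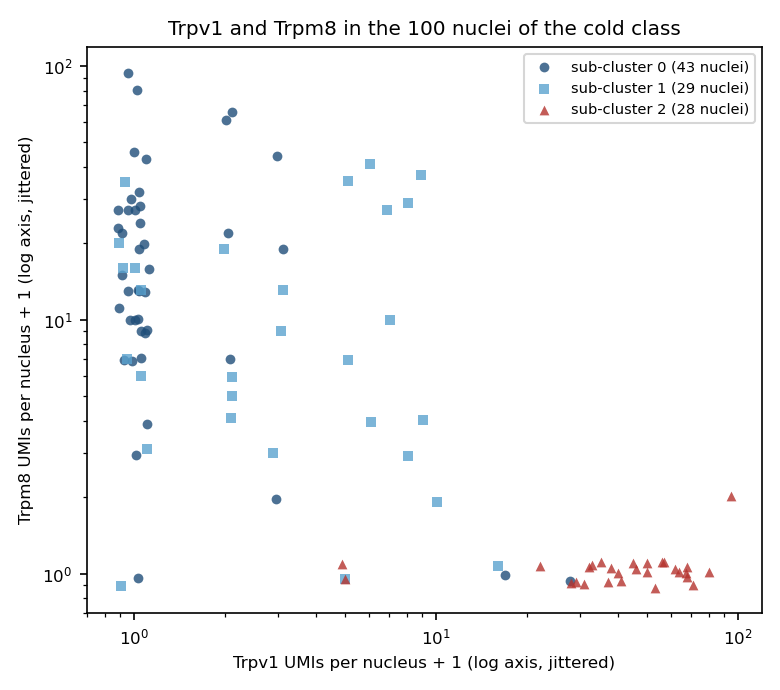
Trpv1 (horizontal) and Trpm8 (vertical) UMIs in each of the 100 cold-like nuclei, plus 1 on log axes with a small jitter; symbols show the 3 sub-clusters made without these genes. The 28 nuclei of sub-cluster 2 lie along the bottom with 0 or 1 Trpm8 UMI, and nuclei with 10 or more Trpm8 UMIs hold at most 8 Trpv1 UMIs.

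Trpa1, the irritant channel, was sparse. Named neurons held 92 UMIs, with PEP at 16.0 CPM (11.2 to 22.2), NP3 at 13.8 (7.89 to 22.4), NP1 at 11.7 (7.63 to 17.1), cLTMR at 5.69 (2.73 to 10.5) and NP2 at 5.15 (1.40 to 13.2). No neighbours in this order differed beyond counting error, but PEP was above cLTMR (ratio 2.81, 1.37 to 6.35). NF and cold-like nuclei held 0 UMIs, which allows 6.02 and 3.60 CPM, and satellite glia were at 2.02 CPM (0.970 to 3.72). At matched depth 5 of 215 PEP nuclei held a UMI (2.33%, interval 0.759 to 5.34) against 0.104% of satellite glia. The unthinned shares were 9.80% in PEP, 12.8% in NP3, 11.4% in NP1 and 0.439% in satellite glia. Of the 25 PEP nuclei with Trpa1, 19 also held Trpv1, at full depth, against 164 of the 230 without it.

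Trpm3, the heat and steroid channel, was found in every neuron class and also in non-neuronal nuclei. It was at 2826 CPM (2757 to 2896) in PEP, and at 1246 CPM in NP3, 1192 in NP1, 1143 in NP2 and 1013 in the cold-like class. NP3, NP1 and NP2 could not be ordered, with neighbour ratios of 1.05 and 1.04 whose intervals held 1. NF lay at 301 CPM (255 to 353) and cLTMR at 70.6 CPM (58.7 to 84.2), so cLTMR-like nuclei had the lowest level. At 1000 UMIs a nucleus, 83.3% of PEP nuclei but 7.04% of cLTMR nuclei (10 of 142) held a UMI. Satellite glia were at 1020 CPM (992 to 1048) with a share of 53.3%, above cLTMR by either measure and at 2.21 against 0.721 UMIs per nucleus. Endothelial nuclei, by contrast, were at 135 CPM.

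The highest Trpm3 level of the library was outside the neurons. A cluster of 131 nuclei led by Ptgds, Ranbp3l, Slc6a20a and Atp13a5 had 23650 Trpm3 UMIs, 56162 CPM (55449 to 56883), which was most of the 31335 UMIs of all non-neuronal nuclei. It stayed unnamed because only 2 markers of its best-scoring type, perineurial cells, were detected. Trpm3 itself was among its top 10 genes by fold. Mesenchymal-like nuclei were at 1225 CPM and myelinating Schwann-like nuclei at 762, while immune nuclei were at 163 CPM and mural nuclei at 133. The annotation lists 5 genes that overlap Trpm3, 2 on its strand (Mir204 and a processed pseudogene) and 3 on the other, so reads could be split or shared among them.

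Trpc7 was carried by the PEP-like class. Of its 307 UMIs in named neurons 294 were there, at 131 CPM (116 to 147), 18.2-fold above the cold-like class (8.25 to 49.9) and 72.9-fold above all other named neurons (42.0 to 139). The classes beneath it ran from 7.19 CPM in cold-like to 0 in NF and NP2, and no neighbours among them differed beyond counting error. Cold-like was above NP1 (ratio 8.00, 1.43 to 81.1), from 6 and 2 UMIs. Within PEP the level differed by cluster: 63.6 CPM in the cluster of 161 nuclei and 303 CPM in the cluster of 25, a ratio of 4.77 (3.52 to 6.45). The cluster led by mitochondrial genes was at 253 CPM. Without it PEP was at 101 CPM, still 56.2-fold above the other neurons (32.1 to 108). Trpv1 ran the other way, at 850 CPM in the cluster of 161, 343 in that of 25 and 304 in the one led by mitochondrial genes. Across single PEP nuclei at matched depth, Trpc7 was in 8 of 93 nuclei with Trpv1 (8.60%, interval 3.79 to 16.2) and in 16 of 122 without it (13.1%). At full depth, where deep nuclei hold more of both, it was in 75 of 183 and 7 of 72. The matched-depth share was 11.2% of PEP nuclei and 0 of 1925 satellite glia, which allows a share of up to 0.156%.

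Trpc5 was rare. NP1 had 41 of its 66 neuronal UMIs, at 18.4 CPM (13.2 to 25). This was 2.16-fold above cLTMR (1.17 to 4.20), which was at 8.54 CPM. NP2 followed at 7.73 CPM and the rest at 0 to 4.01 CPM. No neighbours below NP1 differed beyond counting error, but cLTMR was above PEP, with 15 UMIs against 1 (ratio 19.2, 2.95 to 808). In NP1 10.8% of nuclei held a UMI at full depth and 1.20% (2 of 166) at matched depth, against 0.176% and 0.104% of satellite glia. At matched depth 3 of 142 cLTMR nuclei and 1 of 74 NF nuclei held a UMI, so NP1 was not highest by that share. Outside neurons, 21 of its 30 UMIs were in mesenchymal-like nuclei. A mesenchymal-like cluster of 124 nuclei led by Slc47a1 reached 36.5 CPM (19.4 to 62.4), 4.56-fold above the other mesenchymal clusters (1.75 to 12.7).

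Trpv2 was the most even member across the neuron classes. It was at 89.7 CPM (73.3 to 109) in NP3, 80.0 (68.7 to 92.7) in NP1, 60 in cold-like, 56.4 in cLTMR, 42.7 in PEP, 20.1 (9.62 to 36.9) in NF and 18.0 (9.85 to 30.2) in NP2. Only the step from PEP to NF, 2.13-fold (1.11 to 4.58), exceeded counting error among neighbours, while the ends of the order differed by 4.98-fold (2.84 to 9.42). Matched-depth shares lay between 2.70% in NF and 7% in the cold-like class, all of whose intervals overlapped, against 0.831% in satellite glia. Outside neurons it was found in mural (44.4 CPM, 12.1 to 114) and immune nuclei (42.7 CPM, 21.3 to 76.3), while endothelial nuclei held 0 UMIs, which allows 10.4 CPM.

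**Figure D3:**
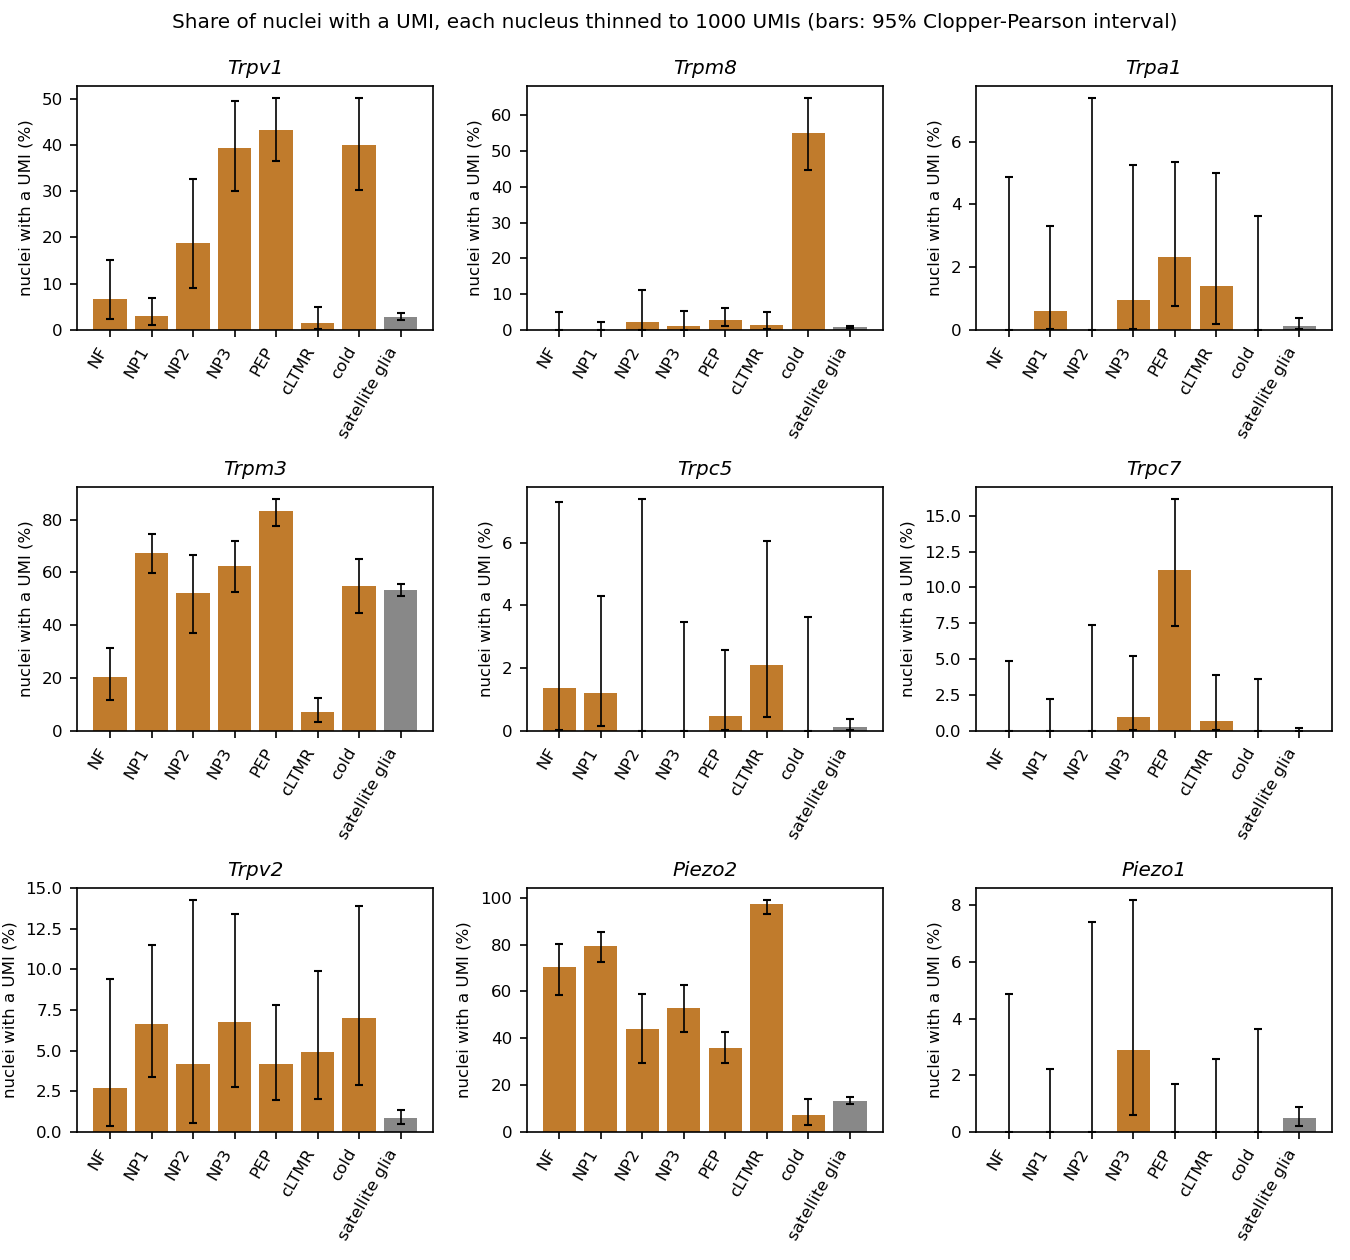
Share of nuclei with at least 1 UMI after each nucleus of at least 1000 UMIs was thinned to 1000, by class, for the 9 members (linear axes from 0; error bars are 95% Clopper-Pearson intervals; satellite glia grey). Piezo2 reaches 97.2% in cLTMR-like and 7% in cold-like nuclei, and Trpm3 83.3% in PEP-like and 7.04% in cLTMR-like nuclei.

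Piezo2, the touch channel, was highest in cLTMR, the class lowest for Trpm3. It was at 4662 CPM (4561 to 4764) in cLTMR, 2020 (1897 to 2148) in NF, 1769 (1714 to 1825) in NP1, 935 in NP3, 635 in PEP and 529 in NP2. The cold-like class had 24.0 CPM (14.6 to 37.0), and NP2 was 22.1-fold above it (14.1 to 36.5). Every step exceeded counting error, the smallest being NF over NP1 at 1.14-fold (1.06 to 1.22). At matched depth 97.2% of cLTMR nuclei, 79.5% of NP1, 70.3% of NF, 52.9% of NP3, 43.8% of NP2 and 35.8% of PEP held a UMI. The cold-like share was 7% (7 of 100, interval 2.86 to 13.9), and its 20 UMIs lay in 20 different nuclei. All 3 cold-like sub-clusters were low, at 27.1, 22.8 and 21 CPM.

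The cold-like class was below satellite glia for Piezo2 (158 CPM, interval 147 to 170, share 13.1%), with 0.200 against 0.344 UMIs per nucleus. Piezo2 was also high in mesenchymal-like nuclei (1020 CPM), where the Slc47a1-led cluster reached 1958 CPM (1815 to 2108), 2.85-fold above the other mesenchymal clusters (2.56 to 3.18) and near the NF-like level. Endothelial nuclei were at 574 CPM (490 to 668), and immune and mural nuclei at 89.2 and 88.8 CPM.

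Piezo1 was mainly non-neuronal, with the NP3-like class as the neuronal exception. Endothelial-like nuclei had 183 CPM (137 to 240), 11.2-fold above the other non-neuronal nuclei (8.01 to 15.5). Immune nuclei followed at 81.4 CPM (50.4 to 124) and mesenchymal at 43.6 (33.2 to 56.2), while satellite glia were at 4.65 CPM (2.95 to 6.98). A cluster of 23 nuclei led by haemoglobin genes had 141 CPM from 5 UMIs (45.7 to 328). Among named neurons, 37 of 42 UMIs were in the NP3-like class, at 31.9 CPM (22.5 to 44.0), 53.2-fold above the other neurons (20.9 to 174). They lay in 26 of its 109 nuclei, at most 3 UMIs each, so no single nucleus set the level. The other 6 classes held 0 to 2 UMIs each. At matched depth 3 of 104 NP3 nuclei held a UMI (2.88%, interval 0.599 to 8.20) and 0.468% of satellite glia, and these intervals overlapped (0.214 to 0.886 in satellite glia). The annotation lists 3 genes that overlap Piezo1, among them Ctu2 on the other strand, and strand use in the counting is not recorded.

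**Figure D4:**
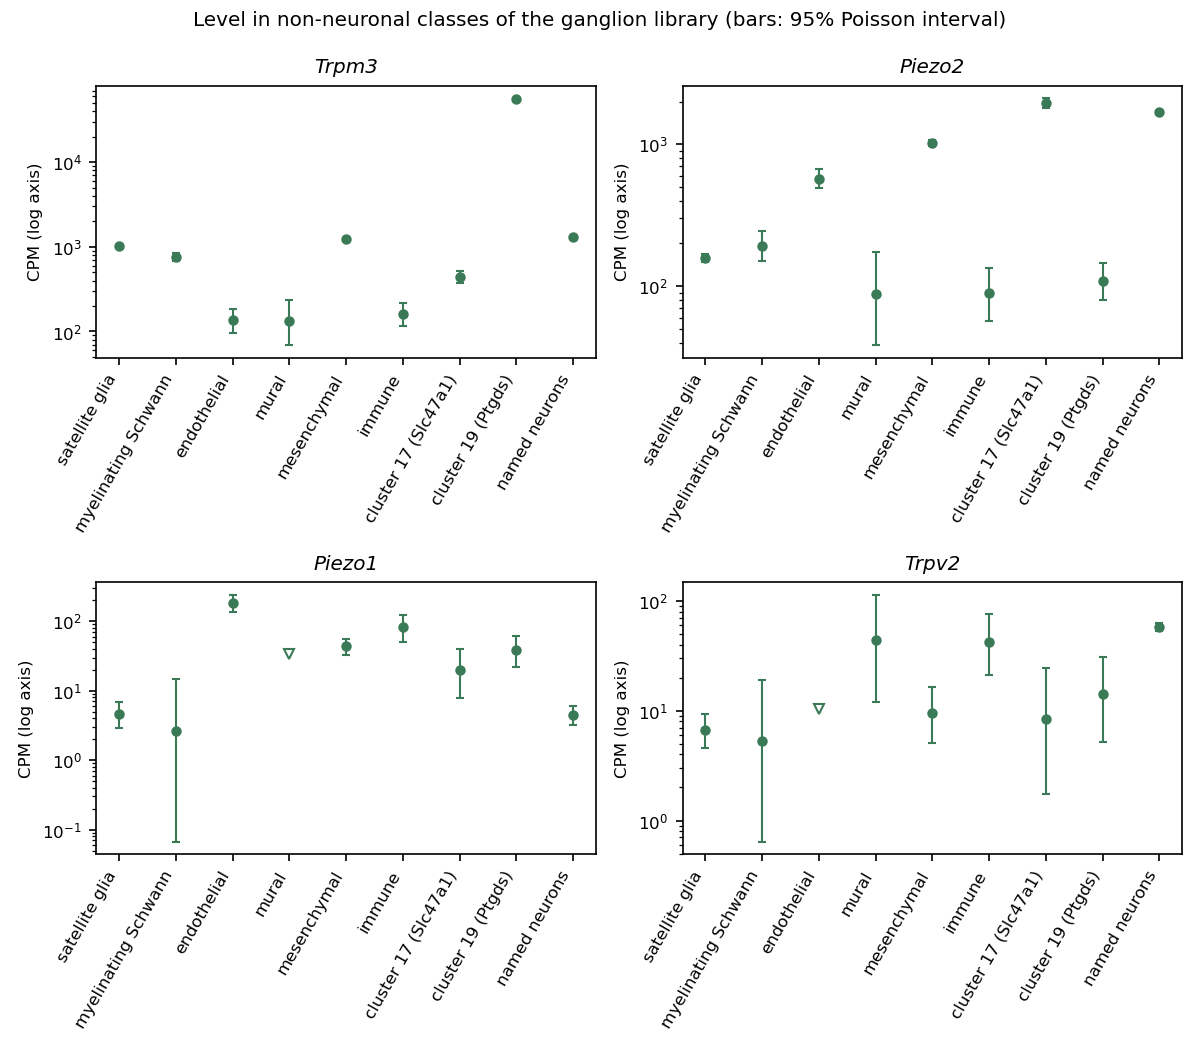
Trpm3, Piezo2, Piezo1 and Trpv2 in CPM (log axes) in non-neuronal classes, in 2 clusters named by a leading gene (cluster 17 is part of the mesenchymal class) and in named neurons; bars are 95% Poisson intervals and triangles mark 0 UMIs at the level of 3 counts. Trpm3 reaches 56162 CPM in the Ptgds-led cluster, and Piezo1 is highest in endothelial nuclei at 183 CPM.

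The unmyelinated types together were set against the NF-like class, the comparison closest to the study's question. Of the 9 members, 6 were at least 2-fold higher in the unmyelinated types, against 14.4% of 15583 genes, and 0 were at least 2-fold lower, against 16.2%. The median log2 ratio of the members was 1.58, beside -0.01 over all genes compared. Single classes carried some of these calls. Of the UMIs in named neurons, cold-like held 1251 of 1335 for Trpm8, PEP 294 of 307 for Trpc7 and NP3 37 of 42 for Piezo1. For Trpv1, NP1 (31.5 CPM) and cLTMR (8.54 CPM) were not above NF (34.1 CPM). PEP was pooled whole. Of the markers of its myelinated (A-fibre) type, Bmpr1b was at 51.2 CPM in it, Smr2 at 9.34, Nefh at 18.2 and Hapln4 at 0. Trpv1 was 12.2-fold higher (7.59 to 20.9), Trpm3 4.55-fold (3.87 to 5.38) and Trpv2 3.00-fold (1.62 to 6.29). Trpm8, with 2 UMIs in NF, had a ratio of 36.9 (10.2 to 305). Trpc7 was at least 5.67-fold higher, taking 3 counts for the 0 of the whole NF-like class. Piezo1, with 1 UMI in NF, had a ratio of 2.27 whose interval held 1 (0.386 to 91.9). Trpa1 was at least 1.70-fold higher, and Trpc5 had a ratio of 1.77 (0.471 to 15). Piezo2 was 0.829 times the NF level (0.778 to 0.884). The NF-like class had 498615 UMIs against 8998709, and its nuclei were shallower, so low genes were poorly measured there.

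A further 4 lists of channels and partners were read the same way. Of 21 other TRP family genes, 11 reached 20 UMIs and 6 of these were at least 2-fold higher in unmyelinated types, with 0 lower. Trpc4 had a ratio of 26.9 from 1 NF UMI (4.80 to 1064), and Trpc6 was 8.64-fold higher (3.36 to 31.8), both in the same subfamily as Trpc7 and Trpc5. Trpm6, with 1 NF UMI, had a ratio of 3.38 (0.584 to 136). Of 10 TRP partners and sensitising receptors, 9 were compared, and 5 were higher and 0 lower. Tmem100, an adaptor of Trpa1 and Trpv1, was 10.1-fold higher (3.43 to 49.0) and Plcb3, a phospholipase downstream of itch and pain receptors, 5.70-fold (3.39 to 10.5). Hrh1, the histamine receptor, and Bdkrb2, the bradykinin receptor, had ratios of 4.38 (0.763 to 175) and 3.71 (0.644 to 149), each from 1 NF UMI.

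Of 15 Piezo partners and other mechanically activated or proposed channels, 13 were compared, with 4 higher and 3 lower. Kcnk2, the stretch-activated potassium channel TREK-1, was 11.1-fold higher (5.07 to 30.2), and Tmem150c 2.32-fold (1.37 to 4.26). Tmem63a (5.15, interval 0.902 to 206) and Tmem87a (2.19, 1.18 to 4.61) were also past the threshold. Asic1 and Asic3, acid-sensing channels, were at 0.317 (0.166 to 0.668) and 0.461 (0.295 to 0.754) times the NF level, and Mdfic at 0.499 with an interval that held 1 (0.119 to 4.43). Of 10 other channels of sensory endings, 3 were higher and 4 lower. The nociceptor sodium channels Scn10a and Scn11a were 13.6-fold (9.80 to 19.6) and 12.5-fold higher (7.68 to 21.9), and the ATP receptor P2rx3 8.12-fold (4.11 to 18.9). Ano1, a calcium-activated chloride channel, was at 0.0103 times the NF level (0.00564 to 0.0177), Kcna1 at 0.0677 (0.0504 to 0.0910), Grik2 at 0.154 (0.135 to 0.175) and Kcna2 at 0.355 (0.239 to 0.545). The potassium channels Kcna1 and Kcna2 are known for their place beside the nodes of myelinated axons.

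The genes whose class pattern was most like each member's were ranked by Pearson's r of log2(CPM + 1) over the 13 named classes, among 13455 genes with at least 100 UMIs. The points share 1 library, and depth differs between classes, so r is a description. For Trpv1 they were Unc5d (0.924), Pcdhb17 and Oprm1, the mu opioid receptor (0.853). For Trpm8 they were Gm37834 (0.890), Prlr (0.879) and B230303A05Rik. For Trpc7 they were 9330185C12Rik (0.953), Mpped1 (0.911) and Gm46392. For Trpa1 they were Gm9947 (0.895), Klf7 and Ccdc60, and for Trpm3 Gm26911 (0.906), Mettl7a3 and Tspyl5. For Trpv2 they were Cacnb3 (0.889), Gm29585 and Lyrm1, and for Piezo2 Gm44129 (0.878), Ddx11 and Paqr5. Piezo1 had under 50 UMIs in neurons and was not ranked.

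For Trpc5 the most similar gene was its neighbour Rtl4 (0.923), followed by Prmt8 and Rspo2. Rtl4 starts or ends 0.727 kb from Trpc5 on the opposite strand. Like Trpc5 it was high in NP1 (80.9 CPM) and in the Slc47a1-led mesenchymal cluster (916 CPM), and low in NP3 (0.863 CPM) and PEP (2.67 CPM). Unlike Trpc5, which was at 4.01 CPM in NF, Rtl4 was at 66.2 CPM there (45.6 to 92.9). Trpm8 has a neighbour at 0.028 kb on the opposite strand, Hjurp, a centromere gene. Hjurp was at 504 CPM (457 to 554) in the cold-like class, between 42.7 and 65.7 CPM in the other 6 neuron classes and 684 CPM in the cluster of cycling nuclei. Within the cold-like class Hjurp was at 994, 277 and 71.5 CPM in sub-clusters 0, 1 and 2, the order of Trpm8. Whether counting assigned reads of 1 gene to its neighbour was not tested. Holding out Hjurp and the overlapping antisense gene 4930453O03Rik gave sub-clusters of 43, 29 and 28 nuclei with the same 3 pairs of Trpm8 and Trpv1 levels.

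In the sciatic nerve, which carries axons but not the cell bodies of these neurons, 4 members were nearly undetected. Trpa1, Trpm8, Trpc5 and Trpc7 had at most 5 UMIs in any of the 5 libraries, whose kept cells held 60411197 to 101325179 UMIs. Trpv1 lay between 0.276 CPM at P7 and 1.36 CPM at P28 over all kept cells. In cells gated by markers of mural cells (pericytes and smooth muscle) it was at 5.52 CPM at P14 (3.33 to 8.62), 12.5 at P28 (7.15 to 20.3) and 16.3 at P60 (11.6 to 22.2). At P60 those 345 cells held 40 of the library's 57 Trpv1 UMIs, in 31 cells, while mural cells held 0 UMIs at P0 and 1 at P7. These are cells, and the ganglion library is nuclei, so levels were not set against each other as folds. The other 4 members were present at every age. Over all kept cells Trpm3 was at 124 CPM in the P0 library, 74.5 in P7, 21.5 in P14, 14.1 in P28 and 7.48 in P60. Piezo2 was at 59.7, 42.2, 91.1, 154 and 53.9 CPM, Piezo1 at 26.9, 9.32, 110, 48.5 and 41.0, and Trpv2 at 3.65, 2.38, 10.1, 5.95 and 12.0, in the same order of ages. Each age is 1 library, and the mixture of cells differed between the libraries as well. Of 9927, 11222, 9038, 13597 and 7189 kept cells from P0 to P60, those with endothelial markers numbered 242, 56, 3384, 532 and 529. Cells with myelinating Schwann markers numbered 4519, 6742, 539, 668 and 222. The part of cell composition in the whole-library values was not tested beyond the gated values that follow.

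Cells were gated by the presence of at least 3 markers of 1 class, and classes were ranked where they held at least 50 cells. Piezo1 was highest in endothelial-gated cells in 5 of 5 libraries, at 134, 87.2, 157, 112 and 121 CPM from P0 to P60. Trpv2 was highest in mural-gated cells in 5 of 5 libraries, between 30.6 CPM at P0 and 54.6 CPM at P60, with immune-gated cells next at 23.6 to 34.0 CPM. At P0 mural and immune cells could not be ordered, with 30.5 CPM in immune cells. Trpm3 was highest in myelinating Schwann-gated cells in 5 of 5 libraries, at 169 CPM at P0 and between 90.3 and 121 CPM later. Cells gated as satellite glia, at most 9 a library, were not ranked. The 5 Trpm3 levels in mesenchymal-gated cells were 37.1, 15.7, 11.0, 8.26 and 3.87 CPM. Piezo2 was highest in mesenchymal-gated cells at P0 and P7 (154 and 123 CPM). At P14 mesenchymal (227 CPM, 218 to 237) and perineurial-gated cells (219 CPM, 192 to 249) could not be ordered. Perineurial cells were at 200 CPM (180 to 221) at P28 and 121 CPM (101 to 143) at P60, with intervals that overlapped those of non-myelinating Schwann cells (183 to 235 and 115 to 145). In non-myelinating Schwann-gated cells it was at 32.5, 25.5, 114, 208 and 130 CPM.

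**Figure D5:**
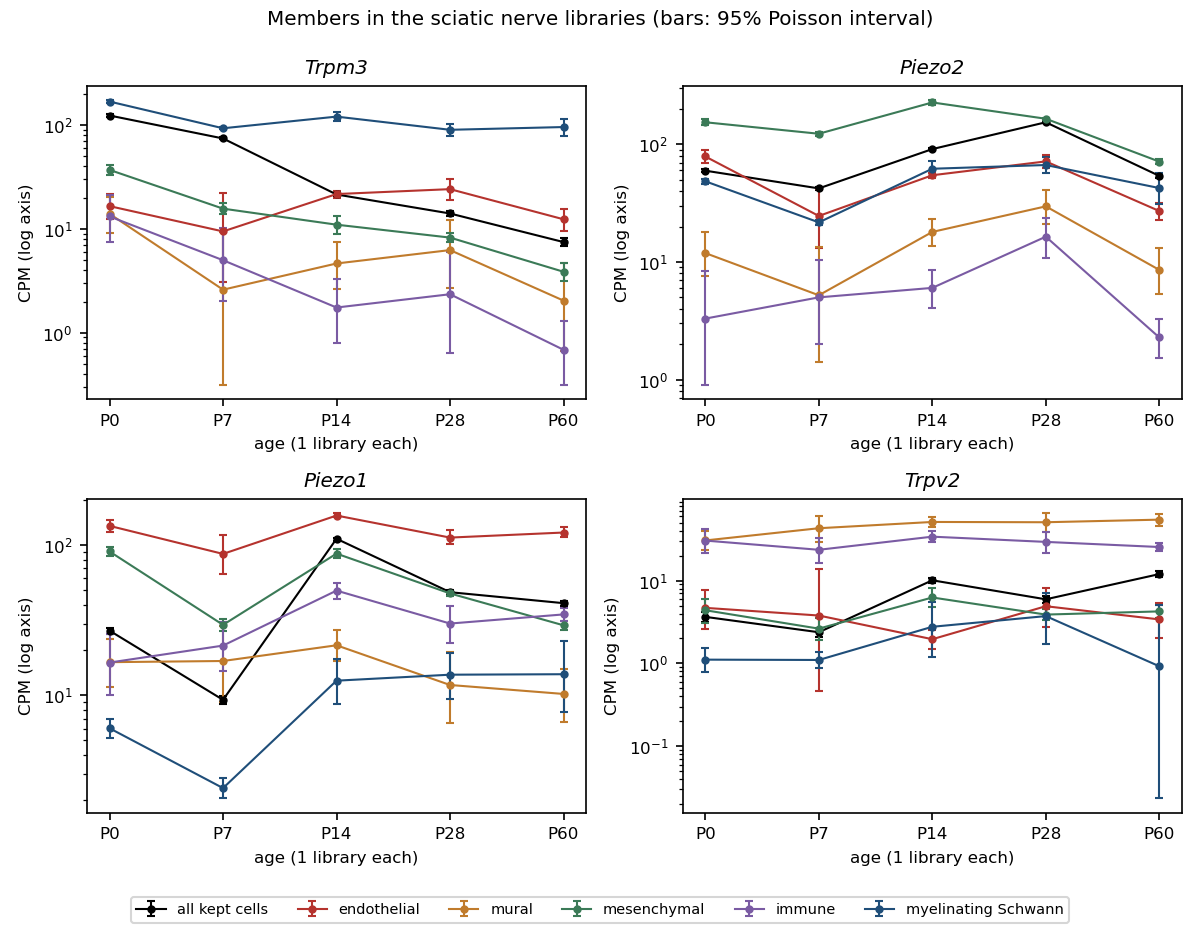
Trpm3, Piezo2, Piezo1 and Trpv2 in CPM (log axes) in the sciatic nerve libraries from P0 to P60, over all kept cells (black) and in marker-gated cell types (colours); bars are 95% Poisson intervals, and lines join single libraries without replicates. Piezo1 is highest in endothelial cells (87.2 to 157 CPM) and Trpv2 in mural cells (30.6 to 54.6 CPM) in each library.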

How the data were processed

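The values are UMI counts per gene and barcode, deposited by the authors. Per the file headers they were made with Cell Ranger 7.1.0 for the ganglion and 5.0.1 for the nerve (7.0.0 for P7). Per the submitters' processing notes Seurat and mm9 were used, but 94.1% of ganglion gene IDs are in GENCODE M21 (GRCm38). Whether introns or strand were used in counting is not given in the sources used here.

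A barcode was kept if it had 300 or more genes, 500 or more UMIs and no more than 5% mitochondrial UMIs. Scrublet's own threshold marked 0%, so the top 8% by score were removed. Clustering used scanpy 1.11.5, without the members or the channel lists. Classes were named from markers by a rule set after the clusters were seen. CPM has exact Poisson intervals, shares have Clopper-Pearson intervals and ratios have exact conditional intervals, all 95% and for counting error only. A gene was called at 2-fold with at least 20 UMIs over both groups, with a group at 0 taken at 3 counts. Thinning drew 1000 UMIs per nucleus and left out shallower nuclei. Genes named beside the members were the 3 most alike per member and, per list, up to 4 with the largest and 4 with the smallest ratios past 2-fold, except 1 that is not reported here. Neighbouring genes and those of the cold-like sub-clusters were chosen after their values were seen. The intervals were tested only on simulated Poisson counts. These lack the spread between nuclei, so that test does not show how the intervals hold for these data. The members and lists were chosen with earlier results of these data known. The cold-like sub-clusters and the values without sub-cluster 2, the Ptgds-led or the mitochondrial cluster were chosen after seeing the data.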

Additional observations from a re-analysis of the deposited data

How the results depend on the processing

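The count of members at least 2-fold higher in neurons than in non-neuronal nuclei ran from 6 to 7 over 12 alternatives (7 as reported). The count at least 2-fold higher in unmyelinated types than in NF ran from 4 to 8 (6 as reported), with 4 at a 3-fold and 8 at a 1.5-fold threshold. The share over all genes was taken only at the reported settings, so the counts under the alternatives cannot be set against such a share. With classes taken from marker UMIs alone, the unmyelinated over NF log2 ratio turned to -0.41 for Trpv1 (3.60 as reported) and to -0.79 for Trpm8 (5.21). In that setting cold-like nuclei counted as NF carried 243 of the NF group's 291 Trpv1 UMIs and 114 of its 140 Trpm8 UMIs. The highest class was the same in 8 of 8 alternatives for 7 members and in 6 of 8 for Trpa1 and Trpv2. None of those 8 left out cold-like sub-cluster 2, without which PEP was highest for Trpv1 (679 CPM, against 253 CPM in cold-like). The share of Trpv1-positive cold-like nuclei with Trpm8 was 10.3% at 500 UMIs, 15.9% at 2000 and 45.6% with all UMIs. The NF-like class, with the fewest UMIs of the neuron classes, limits low genes most. No paired analysis was possible because each group holds 1 library.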
